A study of Mus musculus with 24 samples.

Results

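The potassium channel genes of the dorsal hippocampus were followed at rest and after training in mice of 2 genotypes, WT and CBP KIX/KIX. They are the protein-coding genes of GENCODE M21 whose symbol starts with Kcn, without Kcnj13 and Kcne2, matched by Ensembl identifier. Members were chosen by a measured value, a mean of at least 10 counts per library over the 24 libraries. Of 94 such genes, 80 were members, 12 were under the minimum and 2 were left out by name. The members were 80 of 51826 gene identifiers and took 0.610% to 0.745% of the counts of a library in RNA-Seq 1 and 0.494% to 0.527% in RNA-Seq 2. Just inside the minimum lay Kcnn4 with a mean of 14.5 counts and Kcnj5 with 15.4, and just outside it Kcne3 with 9.38 and Kcnk7 with 8.17.

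Per the labels all animals were male C57BL/6j mice 2 to 4 months old. CBP KIX/KIX mice carry point mutations in the KIX domain of the coactivator CBP in every tissue, and WT littermates were the controls. RNA-Seq 1 was made from total RNA with ribosomal depletion and holds 3 WT homecage, 3 WT MWM (Morris water maze, a spatial task) and 3 CBP KIX/KIX MWM libraries. RNA-Seq 2 was made with polyA selection and holds 3 WT homecage libraries, 4 WT CFC libraries (contextual fear conditioning, in which a place is paired with a foot shock) and 4 libraries each of conditioned and of homecage CBP KIX/KIX mice. No CBP KIX/KIX homecage group was analysed in RNA-Seq 1. Libraries held 38174044 to 65709282 counts in RNA-Seq 1 and 15385836 to 46056290 in RNA-Seq 2. The labels number the replicates and do not say which animals they came from, so p-values measure the spread between these libraries. Where RUVr factors (estimated factors of unwanted variation) were used, p-values measure the spread left after factors estimated from the same libraries.

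Potassium channels let potassium leave the cell and so set the resting potential, shape the action potential and limit repetitive firing. Voltage-gated alpha subunits open on depolarization, and modifier subunits join them without forming channels of their own. Auxiliary subunits bind to the pore from inside the cell or within the membrane. Calcium- or sodium-activated channels open as these ions enter during activity, inward rectifiers include the channels of G-protein signalling, of ATP sensing and of potassium uptake by astrocytes, and two-pore-domain channels carry leak current. In hippocampal pyramidal cells the A-type current of Kv4 channels in dendrites is known to bear on synaptic plasticity.

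The promoters of Kcnip3, Kcnt2 and Kcnj10, 3 of the 4 members that passed a test other than library type, are shown because the KIX domain is where CBP meets phosphorylated CREB, which binds the cAMP response element. The windows are from RefSeq on GRCm38.p6 and span 250 bases before to 50 bases after an annotated start, 5′ to 3′ in the direction of the gene. Capitals mark the half-site of the element, TGACG or CGTCA.
Kcnip3, chr2:127522045-127522344, minus strand: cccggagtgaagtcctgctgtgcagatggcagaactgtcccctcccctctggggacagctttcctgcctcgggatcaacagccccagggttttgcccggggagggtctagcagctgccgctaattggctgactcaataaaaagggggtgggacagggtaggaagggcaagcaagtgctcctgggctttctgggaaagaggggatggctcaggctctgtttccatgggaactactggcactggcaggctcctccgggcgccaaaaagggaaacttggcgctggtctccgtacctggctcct
Kcnip3, chr2:127521343-127521642, minus strand: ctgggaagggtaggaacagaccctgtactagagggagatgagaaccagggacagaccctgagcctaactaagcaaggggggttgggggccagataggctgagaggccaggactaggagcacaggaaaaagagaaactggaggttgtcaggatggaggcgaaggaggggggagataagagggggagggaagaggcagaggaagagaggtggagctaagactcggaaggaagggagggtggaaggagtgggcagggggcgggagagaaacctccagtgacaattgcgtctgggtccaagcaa
Kcnip3, chr2:127482450-127482749, minus strand: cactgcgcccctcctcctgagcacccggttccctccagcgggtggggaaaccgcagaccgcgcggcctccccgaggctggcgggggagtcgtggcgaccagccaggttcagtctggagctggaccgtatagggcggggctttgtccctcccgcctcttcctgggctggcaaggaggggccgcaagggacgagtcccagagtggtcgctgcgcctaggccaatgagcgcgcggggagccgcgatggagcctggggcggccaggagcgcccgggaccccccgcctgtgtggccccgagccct
Kcnt2, chr1:140245468-140245767, plus strand: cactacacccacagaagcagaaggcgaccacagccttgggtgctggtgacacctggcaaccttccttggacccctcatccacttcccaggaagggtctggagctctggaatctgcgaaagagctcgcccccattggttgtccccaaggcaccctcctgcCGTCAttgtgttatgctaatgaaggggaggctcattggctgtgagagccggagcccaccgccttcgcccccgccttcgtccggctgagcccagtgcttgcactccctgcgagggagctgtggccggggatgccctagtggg
Kcnj10, chr1:172340960-172341259, plus strand: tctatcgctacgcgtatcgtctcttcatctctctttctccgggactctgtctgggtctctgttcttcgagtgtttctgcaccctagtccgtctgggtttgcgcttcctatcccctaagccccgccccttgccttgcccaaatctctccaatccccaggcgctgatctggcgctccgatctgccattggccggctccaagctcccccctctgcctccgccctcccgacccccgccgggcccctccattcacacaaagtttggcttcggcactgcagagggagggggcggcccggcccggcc

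The half-site in these windows begins 91 bases before the RefSeq start used for Kcnt2, and the full element TGACGTCA is in none of the 5. The GENCODE M21 position of Kcnt2, given below, begins beyond the end of this window. Of the 80 members 57 had a window in the table, with 80 windows in all. The full element was in 0 of these windows and in 1.79% of all 32851 windows of the same length. The half-site, which the full element contains, was in 18.8% of the members' windows and in 20.8% of all windows. The E-box CACGTG, the letters bound by CLOCK and BMAL1, was in 8.75% of the members' windows, at Kcnab1, Kcne4, Kcnh4, Kcnj2, Kcnk5 and Kcnn4, and in 7.15% of all windows. These shares of the members were near those of all windows for the half-site and the E-box. Both strands were searched, and a match is a description of the letters only.

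Kcnab2, an auxiliary subunit, had the highest level per kb in both experiments. Summed over a role in WT homecage libraries, auxiliary subunits had 413.3 CPM per kb in RNA-Seq 1 and 273.9 in RNA-Seq 2, and voltage-gated alpha subunits 407.8 and 289.9. Levels are CPM (counts scaled to a common library size after upper-quartile scaling within an experiment) and, between genes, CPM per kb of exon. The members are 28 voltage-gated alpha subunits, 9 modifier subunits, 13 auxiliary subunits, 8 calcium- or sodium-activated channels, 12 inward rectifiers and 10 two-pore-domain channels. In WT homecage libraries of RNA-Seq 1, Kcnab2, a cytoplasmic beta subunit of Kv1 channels, had the highest level per kb, 297 ± 68.2 (SD, n = 3). It was first in RNA-Seq 2 as well, at 128 ± 6.43 CPM per kb (SD, n = 3). Kcnip2, a calcium-binding partner of Kv4 channels, had 67.4 ± 11.3 and 62.8 ± 5.40 CPM per kb in RNA-Seq 1 and 2 and was second in RNA-Seq 2.

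Among the pore-forming subunits Kcnd2, a Kv4 subunit of the A-type current, had 34.04 ± 2.40 CPM per kb in RNA-Seq 1 and 21.8 ± 1.07 in RNA-Seq 2 (SD, n = 3 each). Kcnj4, a strong inward rectifier, had 96.2 ± 18.4 and 31.1 ± 5.22 CPM per kb. Kcnj9, a subunit of the G-protein-gated channel, had 23.9 ± 3.43 and 29.9 ± 2.51 CPM per kb. Kcnk1, a two-pore-domain channel, had 19.9 ± 1.31 and 31.7 ± 0.764 CPM per kb. In RNA-Seq 2 the levels of Kcnk1, Kcnj4 and Kcnj9 differed by less than the SD of Kcnj4.

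The members named for their mean level over the libraries included these of the remaining roles. Kcnt1, a sodium-activated channel, had 6.68 ± 0.921 and 11.4 ± 1.32 CPM per kb, and Kcnn2, a small-conductance calcium-activated channel, 4.79 ± 1.17 and 6.67 ± 0.491. Kcnk12, a two-pore-domain gene, had 11.5 ± 3.13 and 4.77 ± 1.05 CPM per kb. The modifier subunits Kcnf1 and Kcng2 had 24.1 ± 3.77 and 10.97 ± 1.68 CPM per kb over the 9 libraries of RNA-Seq 1 and 17.7 ± 2.46 and 7.74 ± 1.28 over the 15 of RNA-Seq 2. At the low end, Kcnn4, an intermediate-conductance calcium-activated channel, averaged 0.0610 and 0.0781 CPM per kb over the same libraries. Summed over all members, the level was 7265 ± 1184 CPM in WT homecage, 6796 ± 346 in WT MWM and 6256 ± 419.9 in CBP KIX/KIX MWM libraries. In RNA-Seq 2 the 4 group means of this sum lay between 5063 and 5127 CPM.

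**Figure D1:**
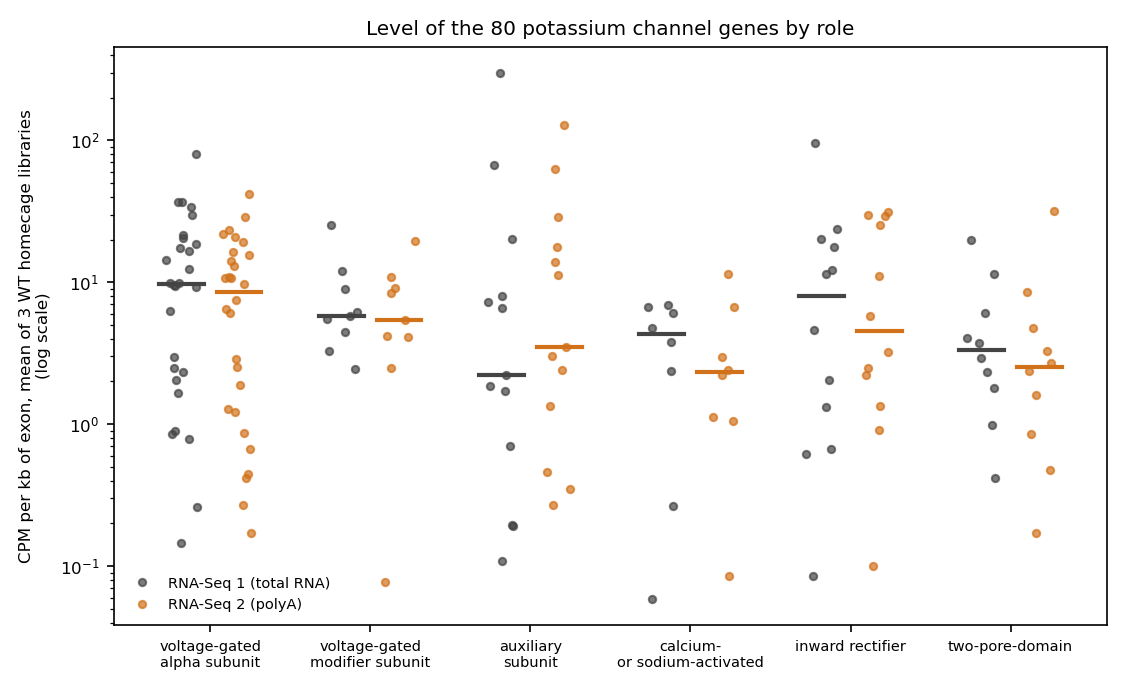
Level of each of the 80 potassium channel genes in CPM per kb of exon (log axis), mean of 3 WT homecage libraries, by role, in RNA-Seq 1 (total RNA, grey) and RNA-Seq 2 (polyA, orange); bars are medians. Kcnab2 stands at the top in both experiments, at 297 and 128 CPM per kb.

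A few libraries stood apart and touch the results. Each library was compared with the median of the others of its experiment over genes with a mean of at least 50 counts. In CBP KIX/KIX homecage replicates 3 and 4, 5.45% and 9.83% of genes lay more than 0.5 log2 units from that median, against 1.20% to 2.87% in the other RNA-Seq 2 libraries, and 4 and 10 of 68 members did so. In RNA-Seq 1 the share was 9.98%, 8.69% and 3.52% of genes in WT homecage replicates 1, 2 and 3, with 9, 9 and 1 of 73 members. It was 5.04%, with 4 members, in CBP KIX/KIX MWM replicate 2 and 1.03% to 2.59% in the other RNA-Seq 1 libraries. In CBP KIX/KIX homecage replicates 3 and 4 the summed level of 7 astrocyte markers was 4840 and 5768 CPM, against 3575 to 4126 CPM in the other RNA-Seq 2 libraries. In RNA-Seq 1, summed levels of 9 markers of hippocampal neurons were 7433, 7981 and 4879 CPM in WT homecage replicates 1, 2 and 3, against 4966 to 6921 CPM in the trained libraries. Summed levels of 8 choroid plexus markers in the same libraries were 121, 134 and 1525 CPM, and over all libraries 33.3 to 4670 CPM. Fewer cells of a type and less RNA per cell cannot be told apart in such bulk samples. Crebbp, which encodes CBP, was counted in all libraries, and gene counts do not show point mutations.

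After learning, CBP KIX/KIX mice differed from WT mice in 3 of the 80 members. Kcnip3 and Kcnh3 were lower and Kcnt2 was higher. The test was edgeR's quasi-likelihood test over both experiments at an adjusted p under 0.05, with the experiment as a batch and 4 RUVr factors (estimated factors of unwanted variation). Of the 21489 genes tested 2.41% passed, and 3 of 80 members is not far from that share. At an unadjusted p under 0.05, 16 members were lower and 3 higher, 23.8% of the members beside 17.8% of all genes, and the median log2 fold change was -0.03 over the members and -0.01 over all genes.

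Kcnip3 encodes a calcium-binding protein of the KChIP family, also known as DREAM or calsenilin, that binds Kv4 channels and can repress transcription. It lies on chromosome 2 from 127456498 to 127522094 on the minus strand (GRCm38). After the water maze it had 80.2, 65.98 and 81.4 CPM in the WT libraries and 58.2, 56.1 and 68.6 CPM in the CBP KIX/KIX libraries. After fear conditioning it had 103, 96.3, 93.9 and 94.1 CPM in WT and 98.9, 79.5, 74.3 and 82.9 CPM in CBP KIX/KIX libraries. The groups overlapped in both experiments, and 6 of 7 CBP KIX/KIX libraries lay below the WT mean of their experiment. The log2 fold change was -0.26 ± 0.03 (SE), with an adjusted p of 0.00169 by edgeR. Within the fit of all libraries of an experiment it was -0.31 ± 0.11 after the water maze and -0.21 ± 0.18 after fear conditioning, with adjusted p-values of 0.813 and 1 by edgeR. In fits of the 2 groups compared, chosen after seeing the data, it was -0.31 ± 0.10 and -0.21 ± 0.08, with adjusted p-values of 0.435 and 1. The difference between the experiments was 0.10 ± 0.13 on the log2 scale, with an adjusted p of 0.878 by edgeR. Without RUVr factors the fold change over both experiments was -0.25 ± 0.07 with an adjusted p of 0.244 by edgeR.

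Kcnt2, a sodium-activated channel known as Slick, lies on chromosome 1 from 140246158 to 140612067 on the plus strand and shares 102 exonic bases with 4930590L20Rik on the other strand. After the water maze it had 29.99, 40.2 and 37.3 CPM in WT and 47.8, 46.2 and 49.1 CPM in CBP KIX/KIX libraries, without overlap. After fear conditioning it had 23.3, 19.6, 21.3 and 21.9 CPM in WT and 23.7, 22.9, 22.1 and 21.99 CPM in CBP KIX/KIX libraries, with overlap. All 7 CBP KIX/KIX libraries lay above the WT mean of their experiment. The log2 fold change was 0.25 ± 0.05 (SE), with an adjusted p of 0.0157 by edgeR, and 0.372 without RUVr factors. Within the experiments it was 0.41 ± 0.11 after the water maze and 0.08 ± 0.07 after fear conditioning. The difference between the experiments was -0.34 ± 0.12, with an unadjusted p of 0.0119 and an adjusted p of 0.755 by edgeR. Without WT MWM replicate 1 the call was lost, with 0.18 and an adjusted p of 0.0855 by edgeR, as it was with GC-content normalization (0.17, adjusted p 0.0963) and with 2 RUVr factors (adjusted p 0.0686).

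Kcnh3, a voltage-gated channel of the ELK family, lies on chromosome 15 from 99224861 to 99242817 on the plus strand. After the water maze it had 197, 203 and 184 CPM in WT and 175, 145 and 189.5 CPM in CBP KIX/KIX libraries. After fear conditioning it had 117, 109, 110.4 and 114 CPM in WT and 112, 119, 105 and 108 CPM in CBP KIX/KIX libraries. The groups overlapped in both experiments, and 6 of 7 CBP KIX/KIX libraries lay below the WT mean of their experiment. The log2 fold change was -0.10 ± 0.02 (SE), with an adjusted p of 0.0368 by edgeR, and 0.631 without RUVr factors. With 1 library left out the adjusted p ranged from 0.0144 to 0.443, and the call was lost without replicate 1 or 2 of either MWM group, WT CFC replicate 1 or CBP KIX/KIX CFC replicate 3 or 4. It was also lost with no filter on low counts (adjusted p 0.133), GC-content normalization (0.334) and 2 RUVr factors (0.185) by edgeR.

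**Figure D2:**
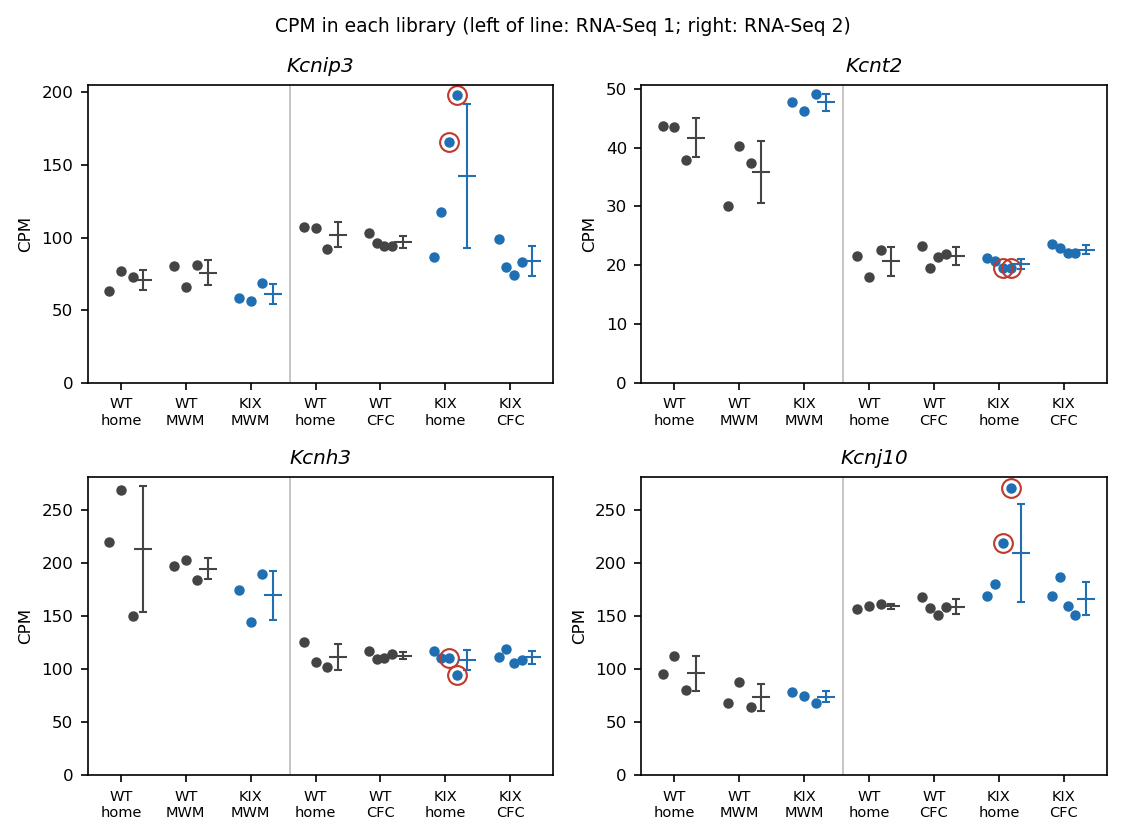
CPM of Kcnip3, Kcnt2, Kcnh3 and Kcnj10 in each of the 24 libraries (points), with the mean and SD of each group beside them, WT in grey and CBP KIX/KIX in blue. Rings mark CBP KIX/KIX homecage replicates 3 and 4, in which Kcnip3 reached 166 and 198 CPM.

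The members next to the threshold belong to several roles. Kcnab2 had 1489 to 1617 CPM in WT and 1280.0 to 1481 CPM in CBP KIX/KIX libraries after the water maze, without overlap. After fear conditioning it had 686 to 753 CPM and 629 to 798 CPM, with overlap. Over both experiments its log2 fold change was -0.11 ± 0.03 with an adjusted p of 0.0539 by edgeR. Of the inward rectifiers, Kcnj9 had a log2 fold change of -0.12 ± 0.04 (adjusted p 0.103 by edgeR) and Kcnj11, the pore of the ATP-sensitive channel, of -0.10 ± 0.03 (adjusted p 0.109). Kcnj16, which pairs with Kcnj10 in astrocytes, had 4.99 to 7.37 CPM in WT and 6.25 to 9.10 CPM in CBP KIX/KIX libraries after the water maze. Its log2 fold change was 0.25 ± 0.08 (adjusted p 0.109 by edgeR). In the same direction Kcnb2, a delayed rectifier, had 0.11 ± 0.04, Kcnab1, a beta subunit of Kv1 channels, 0.08 ± 0.04 and Kcnk5, a two-pore-domain channel, 0.25 ± 0.15, and none of these 3 passed.

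By role, 1 of 13 auxiliary subunits and 1 of 28 voltage-gated alpha subunits passed in the lower direction, and 1 of 8 calcium- or sodium-activated channels in the higher direction. At an unadjusted p under 0.05 there were 5 of 12 inward rectifiers, 4 of 8 calcium- or sodium-activated channels, 6 of 28 voltage-gated alpha subunits, 2 of 13 auxiliary subunits, 1 of 9 modifier subunits and 1 of 10 two-pore-domain channels. DESeq2 called 6 members, the 3 above and Kcnab2, Kcnj9 and Kcnj16. Over all genes it also called more than edgeR, as given with the processing below.

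Proteins that assemble with the channels, the related HCN channels and markers of cell types were read in the same fit. Of 13 tested channel partners, such as Dpp6 of Kv4 channels, 0 passed by edgeR, with a median log2 fold change of -0.02, and of 4 HCN channels 0 passed. Of 7 astrocyte markers 3 passed, with Gfap at -0.29 ± 0.04 (adjusted p 0.00289), Aldh1l1 at -0.26 ± 0.04 (adjusted p 0.00589) and Gja1 at 0.16 ± 0.03 (adjusted p 0.00922) by edgeR. Of 8 markers of inhibitory neurons Sst and Lhx6 were lower, and of 9 of hippocampal neurons Fibcd1 was lower. None of 8 markers of choroid plexus passed, and all 8 had negative values with a median of -0.52. The experiments differed in this: all 8 were positive after the water maze (median 0.50) and all 8 negative after fear conditioning (median -0.52). Of 7 markers of endothelium and mural cells, 6 of microglia, 8 of oligodendrocytes and 6 of the thalamic border 0 passed, with medians of 0.02, -0.06, -0.07 and 0.02. The part of these markers in the members' values was not tested.

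Learning in WT mice was compared with homecage over both experiments, and 1 of 80 members changed. Kcnj10, the inward rectifier Kir4.1 through which astrocytes take up potassium, was lower after learning by edgeR with 3 RUVr factors. Of 22038 genes 0.699% passed, and 1 of 80 members is not far from that share. At an unadjusted p under 0.05, 17 members were lower and 6 higher, 28.8% of the members beside 16.7% of all genes, and the median log2 fold change was -0.06 over the members and -0.03 over all genes.

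Kcnj10 lies on chromosome 1 from 172341210 to 172374085 on the plus strand. In RNA-Seq 1 it had 95.4, 112 and 79.7 CPM in WT homecage and 67.6, 87.7 and 63.8 CPM in WT MWM libraries. In RNA-Seq 2 it had 156, 159 and 161 CPM in WT homecage and 168, 158, 151 and 159 CPM in WT CFC libraries. The groups overlapped in both experiments, and 6 of 7 trained libraries lay below the homecage mean of their experiment. The log2 fold change was -0.20 ± 0.04 (SE) with an adjusted p of 0.029 by edgeR. It was -0.39 ± 0.14 after the water maze and -0.00 ± 0.12 after fear conditioning. The difference between the experiments was 0.39 ± 0.16, with an unadjusted p of 0.0314 and an adjusted p of 0.639 by edgeR. Without RUVr factors the fold change over both experiments was -0.18 ± 0.09 with an adjusted p of 0.743 by edgeR. With 1 library left out the adjusted p ranged from 0.00526 to 0.256, and the call was lost without WT homecage replicate 1 or 2 of RNA-Seq 1, any WT MWM replicate or WT CFC replicate 3 or 4. It was also lost with no filter (adjusted p 0.0787), TMM (0.0689), GC-content normalization (0.172) and 2 RUVr factors (0.222) by edgeR. The summed astrocyte markers were 2669 to 3238 CPM in WT homecage and 3076 to 3356 CPM in WT MWM libraries.

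The members next by p were lower after learning. Kcnc1, a Kv3 subunit that lets neurons fire at high rates, had 238, 224 and 151 CPM in WT homecage and 149, 184 and 155 CPM in WT MWM libraries. Its log2 fold change over both experiments was -0.16 ± 0.04 with an adjusted p of 0.0565 by edgeR. Kcnc4, also of the Kv3 family, had 76.1, 90.3 and 60.7 CPM in the homecage and 58.5, 58.8 and 65.8 CPM after the water maze. These groups overlapped for both Kv3 genes. For Kcnc4 the value over both experiments was -0.22 ± 0.05 with an adjusted p of 0.0722 by edgeR. Kcnt1 had 62.4, 72.7 and 55.3 CPM in the homecage and 54.8, 48.9 and 54.5 CPM after the water maze, without overlap, and -0.23 ± 0.06 over both experiments with an adjusted p of 0.0793 by edgeR. All 7 trained WT libraries lay below the homecage mean of their experiment for Kcnc4 and for Kcnt1. Kcnj11 had -0.13 ± 0.04 with an adjusted p of 0.0981 by edgeR.

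In the higher direction 0 members passed by edgeR, with 6 at an unadjusted p under 0.05, and DESeq2 called 4, Kcnab1, Kcnh7, Kcnip4 and Kcnj3. In the lower direction DESeq2 called Kcnj10, Kcnt1, Kcnc4 and Kcnc1. It also called more of all genes than edgeR, as given with the processing below. Kcnab1 had 65.6, 68.3 and 72.2 CPM in WT homecage and 90.1, 83.3 and 75.3 CPM in WT MWM libraries, without overlap, and 0.14 ± 0.04 over both experiments (adjusted p 0.108 by edgeR). Kcnh7, a channel of the ERG family, had 30.9, 47.7 and 57.5 CPM in the homecage and 57.7, 65.9 and 58.8 CPM after the water maze, without overlap, and 0.24 ± 0.07 (adjusted p 0.109 by edgeR). Kcnip4, a KChIP protein, had 0.10 ± 0.03 (adjusted p 0.118) and Kcnj3, a subunit of the G-protein-gated channel, 0.10 ± 0.04 (adjusted p 0.196) by edgeR. All 7 trained WT libraries lay above the homecage mean of their experiment for these last genes. Kcnd2 had 0.08 ± 0.03 with an adjusted p of 0.238 by edgeR.

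**Figure D3:**
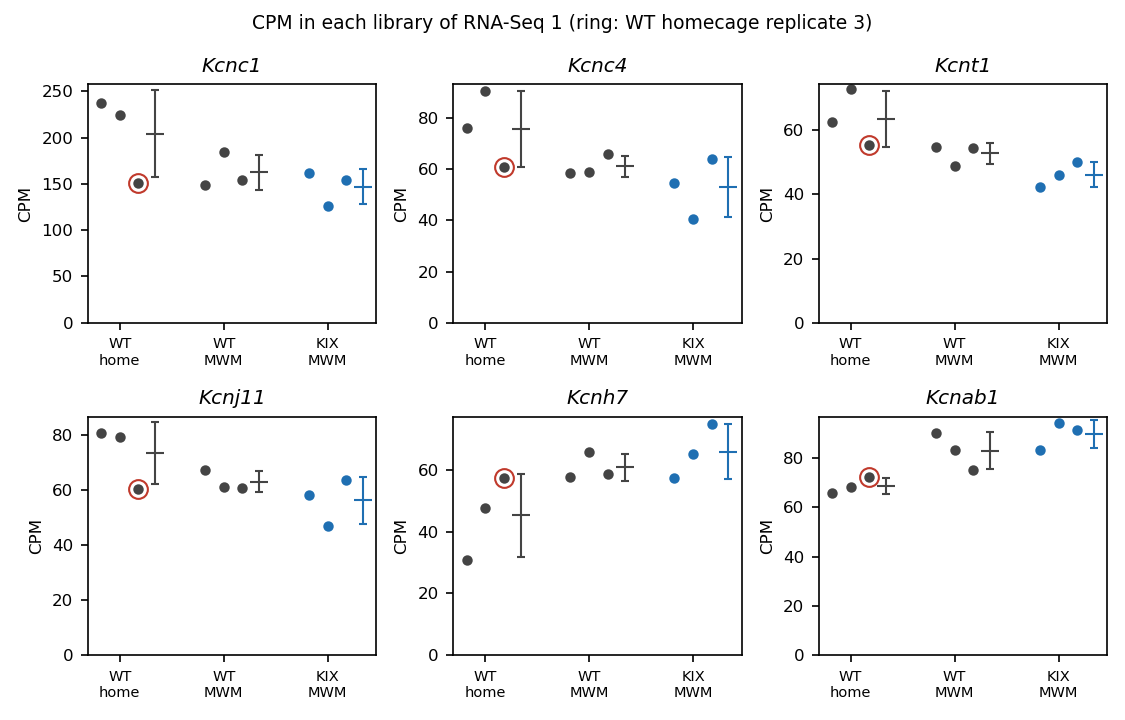
CPM of Kcnc1, Kcnc4, Kcnt1, Kcnj11, Kcnh7 and Kcnab1 in the 9 libraries of RNA-Seq 1 (points), with the mean and SD of each group of 3 beside them, WT in grey and CBP KIX/KIX in blue; the ring marks WT homecage replicate 3. Kcnc1 had 151 CPM in that library and 238 and 224 CPM in the other WT homecage libraries.

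How many members passed, and how many of all genes, turned on a single library. Over both experiments with all libraries, 1 member passed, among 154 of 22038 genes. WT homecage replicate 3 of RNA-Seq 1 had 4879 CPM of hippocampal neuron markers. Without it 14 of 80 members passed over both experiments, 11 lower and 3 higher, and the count over all genes rose from 154 to 2379. The rise was thus not particular to the members. The homecage libraries of RNA-Seq 1 are then replicates 1 and 2, those farthest from the median of that experiment. With replicate 1 left out instead 0 members passed, among 32 genes called, and without replicate 2 0 members among 51. In the water maze comparison, within the fit of the 9 libraries of RNA-Seq 1, 0 of 80 members passed by edgeR with all libraries, and 0.0135% of 22276 genes did, with 16 members and 10.9% of all genes at an unadjusted p under 0.05 and 0 members by DESeq2. Without replicate 3 14 members passed by edgeR, 12 lower and 2 higher, among 2418 of 22563 genes tested, and without replicate 1 or 2 0 members did. Of the lower ones, Kcnc1 had -0.51 ± 0.11 (adjusted p 0.0162), Kcnj10 -0.51 ± 0.12 (adjusted p 0.0227) and Kcnt1 -0.36 ± 0.09 (adjusted p 0.0299) by edgeR. The higher ones were Kcnh7 at 0.62 ± 0.16 (adjusted p 0.0258) and Kcnab1 at 0.30 ± 0.09 (adjusted p 0.0469) by edgeR. The part of the marker levels of these replicates in the calls was not tested. Over both experiments with all libraries 0 of 13 channel partners passed, 1 of 4 HCN channels, Hcn2, at -0.16 ± 0.03 (adjusted p 0.0412), and 1 endothelial marker, Cldn5, at -0.49 ± 0.09 (adjusted p 0.0361) by edgeR, and no marker of the other lists. All 8 choroid plexus markers had positive values, with a median of 1.35, and all 6 thalamic border markers negative ones, with a median of -0.27.

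**Figure D4:**
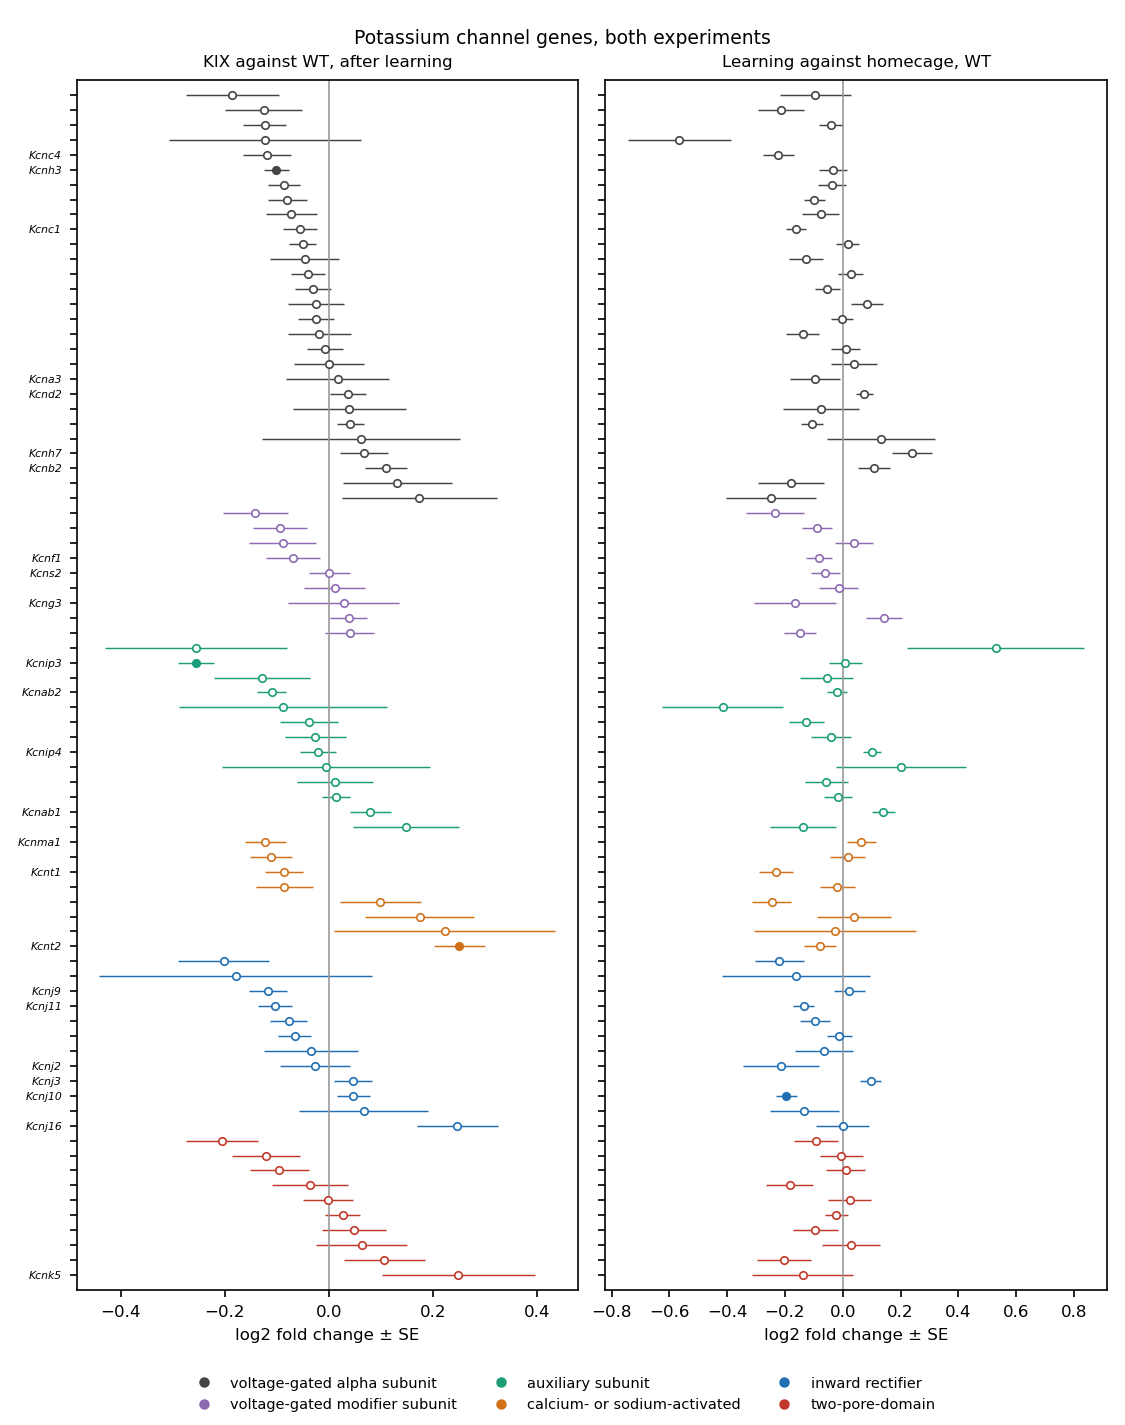
Log2 fold change with its SE for each of the 80 potassium channel genes, by role, for CBP KIX/KIX against WT after learning (left) and for learning against homecage in WT mice (right), both over both experiments with RUVr factors, with symbols for the members named in a comparison. Filled points passed an adjusted p under 0.05; they are Kcnip3, Kcnh3 and Kcnt2 on the left and Kcnj10 on the right.

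After fear conditioning in WT mice no member passed. The count was 0 of 80 by edgeR, beside 0% of 18851 genes, and 0 by DESeq2. At an unadjusted p under 0.05 were 2 members, 2.5% of the members beside 2.39% of all genes. Both members were chosen after their values were seen. They were Kcnj14, an inward rectifier, at -0.42 ± 0.15, and Kcnk6, a two-pore-domain channel, at -0.31 ± 0.13. The Kv3 subunits Kcnc1 and Kcnc4 had -0.02 ± 0.08 and -0.17 ± 0.09, and Kcnab1 and Kcnh7 had 0.01 ± 0.06 and 0.04 ± 0.09. The test of the difference between the learning effects of the experiments passed in 0 of 80 members by edgeR, in 0.0136% of genes and in 0 members by DESeq2. At an unadjusted p under 0.05 it gave 8 members, 10% of the members beside 7.46% of all genes. Without WT homecage replicate 3 of RNA-Seq 1, Kcnc1 at 0.49 ± 0.12 (adjusted p 0.036) and Kcnj4 at 0.53 ± 0.14 (adjusted p 0.0482) passed in it by edgeR.

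Within each experiment no member passed between genotypes after training. After the water maze 0 of 80 members and 0% of 22276 genes passed by edgeR. At an unadjusted p under 0.05 were 3 members, 3.75% of the members beside 5.77% of all genes. The 3 members were Kcnt2, Kcnip3 and Kcnj12, the last chosen after its value was seen. After fear conditioning 0 members and 0.0106% of 18851 genes passed by edgeR, with 0 members and 2.34% of all genes at an unadjusted p under 0.05. DESeq2 called 0 members in either. The test of the difference between the experiments passed in 0 members and 0% of 21489 genes by edgeR and in 0 members by DESeq2. At an unadjusted p under 0.05 it gave 5 members, 6.25% of the members beside 6.46% of all genes. Of the 5 members, Kcnj3 had the lowest p, 0.00247 by edgeR, with a difference of -0.28 ± 0.08. Kcnj3 had 65.8 to 70.8 CPM in WT and 72.6 to 83.8 CPM in CBP KIX/KIX libraries after the water maze, and 134 to 149 CPM and 128 to 137 CPM after fear conditioning.

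In homecage mice, compared between genotypes in RNA-Seq 2 only, 0 of 79 tested members passed by edgeR and 0.0107% of 18682 genes did. Kcng3 was the member not tested. At an unadjusted p under 0.05 there were 8 members, 10.1% of those tested beside 6.12% of all genes. DESeq2 called 1 member, Kcnf1. Kcnf1, a modifier subunit of Kv2 channels, had 97.99, 96.1 and 88.03 CPM in WT and 83.03, 68.02, 72.6 and 65.5 CPM in CBP KIX/KIX libraries, without overlap. Its log2 fold change was -0.38 ± 0.09 with an adjusted p of 0.53 by edgeR, and -0.32 ± 0.09 without CBP KIX/KIX replicates 3 and 4. Kcnc4 had -0.27 ± 0.08 (adjusted p 0.786) and Kcnt1 -0.37 ± 0.11 (adjusted p 0.786) by edgeR, and -0.16 ± 0.07 and -0.26 ± 0.09 without these replicates.

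The higher values of several members in CBP KIX/KIX homecage libraries were smaller without replicates 3 and 4. Kcnj10 had 156, 159 and 161 CPM in WT and 169, 179.7, 219 and 271 CPM in CBP KIX/KIX libraries, without overlap. Its log2 fold change was 0.40 ± 0.15 (adjusted p 0.792 by edgeR), and 0.13 ± 0.06 without these replicates. Kcnj2, an inward rectifier, had 12.3, 14.6 and 13.7 CPM in WT and 15.8, 17.9, 49.7 and 19.03 CPM in CBP KIX/KIX libraries. The log2 fold change of Kcnj2 was 0.90 ± 0.38 (adjusted p 0.798 by edgeR), and 0.32 ± 0.11 without them. Kcns2, a modifier subunit, had 0.27 ± 0.12 with all libraries and 0.12 ± 0.10 without them. Kcnip3 had 107, 107 and 92.1 CPM in WT and 86.6, 118, 166 and 198 CPM in CBP KIX/KIX libraries. Its log2 fold change was 0.47 ± 0.24 with all libraries (adjusted p 0.798 by edgeR) and 0.00 ± 0.12 without them. The part of the higher astrocyte markers of these replicates in the values was not tested.

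Fear conditioning in CBP KIX/KIX mice was read against the same homecage libraries. By edgeR 0 of 80 members and 0% of 18851 genes passed, with 19 members and 13% of all genes at an unadjusted p under 0.05, and DESeq2 called 1, Kcnip3 (adjusted p 0.0214). The log2 fold change of Kcnip3 was -0.75 ± 0.18 with an adjusted p of 0.129 by edgeR. Without homecage replicates 3 and 4 it was -0.30 ± 0.12 with an adjusted p of 0.548 by edgeR. Without homecage replicate 1, which leaves replicates 3 and 4 as 2 of the 3 homecage libraries, 10 members passed by edgeR, 7 lower and 3 higher, among 999 of 18332 genes, with Kcnip3 at -0.93 ± 0.13 (adjusted p 0.00161). The interaction of genotype with training passed in 0 of 80 members and 0% of genes by edgeR and in 0 members by DESeq2. At an unadjusted p under 0.05 it gave 8 members, 10% of the members beside 4.79% of all genes. Kcnip3 had -0.67 ± 0.27 in it and -0.22 ± 0.16 without replicates 3 and 4.

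Between the library types 57 of 80 members differed in WT homecage mice by edgeR, 16 higher and 41 lower in RNA-Seq 2 (polyA) than in RNA-Seq 1 (total RNA). Of the 20602 genes tested 69% passed, so the share of members was near that of all genes. Of all genes 6540 were higher and 7669 lower. The median log2 difference was -0.38 over the members and -0.03 over all genes. These differences are from a fit that scaled the 6 libraries together. The printed CPM were scaled within each experiment, and on that scale differences lay 0.40 log2 units higher at the median, with medians of 0.02 over the members and 0.38 over all genes. Of the 57 members 18 were higher and 39 lower on the CPM scale. Without a filter on low counts 9 were higher and 46 lower by edgeR, with medians of -0.48 over the members and -0.40 over all genes, and with 1 library left out 9 to 16 were higher and 38 to 46 lower. Library type cannot be told apart from the sequencing centre and the animals.

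Of the voltage-gated alpha subunits 18 of 28 were lower and 1 higher, of the modifier subunits 6 of 9 lower and 3 higher, and of the two-pore-domain channels 7 of 10 lower and 1 higher. Of 12 inward rectifiers 4 were lower and 4 higher, of 8 calcium- or sodium-activated channels 4 and 2, and of 13 auxiliary subunits 2 and 5. The median log2 difference was -0.72 in voltage-gated alpha subunits and 0.31 in auxiliary subunits. Of 13 channel partners 8 were lower and 3 higher, and of 4 HCN channels 3 were lower.

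Kcnma1, the pore of the large-conductance calcium-activated BK channel, had the lowest p. It had 107, 128 and 119 CPM in RNA-Seq 1 and 20.1, 17.6 and 19.03 CPM in RNA-Seq 2, a log2 difference of -3.04 ± 0.11 (adjusted p 1.15e-07 by edgeR). Kcng3, a modifier subunit, had 12.3, 11.5 and 9.46 CPM in RNA-Seq 1 and 0.404, 0.251 and 0.130 CPM in RNA-Seq 2, a difference of -5.65 ± 0.27 (adjusted p 6.69e-07 by edgeR). In replicate 3 of RNA-Seq 2 it lay below the level of 3 counts, 0.195 CPM in that library, and in replicates 1 and 2 above it, 0.0801 and 0.0687 CPM. Kcna3, a Kv1 subunit, had 11.6, 14.1 and 10.01 CPM in RNA-Seq 1 and 0.942, 0.706 and 0.906 CPM in RNA-Seq 2, a difference of -4.22 ± 0.21 (adjusted p 7.87e-07 by edgeR). The experiments did not overlap in these 3 members.

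In the higher direction Kcnj16 had 4.90, 4.81 and 5.84 CPM in RNA-Seq 1 and 21.9, 22.9 and 23.7 CPM in RNA-Seq 2, a difference of 1.73 ± 0.12 (adjusted p 4.61e-06 by edgeR). Kcnab1 had 65.6 to 72.2 CPM and 147 to 156 CPM, a difference of 0.75 ± 0.09. Under GC-content normalization the difference of Kcnab1 was 0.15 ± 0.07 and its adjusted p 0.102 by edgeR. Kcnip4 had 23.00 to 24.4 CPM and 47.9 to 52.4 CPM, a difference of 0.68 ± 0.09, and under GC-content normalization its adjusted p was 0.978 by edgeR, with a difference of the other sign near zero. The experiments did not overlap in these members. Kcnab2 lay in the other direction from Kcnab1, with a difference of -1.61 ± 0.17 (adjusted p 3.81e-05 by edgeR).

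**Figure D5:**
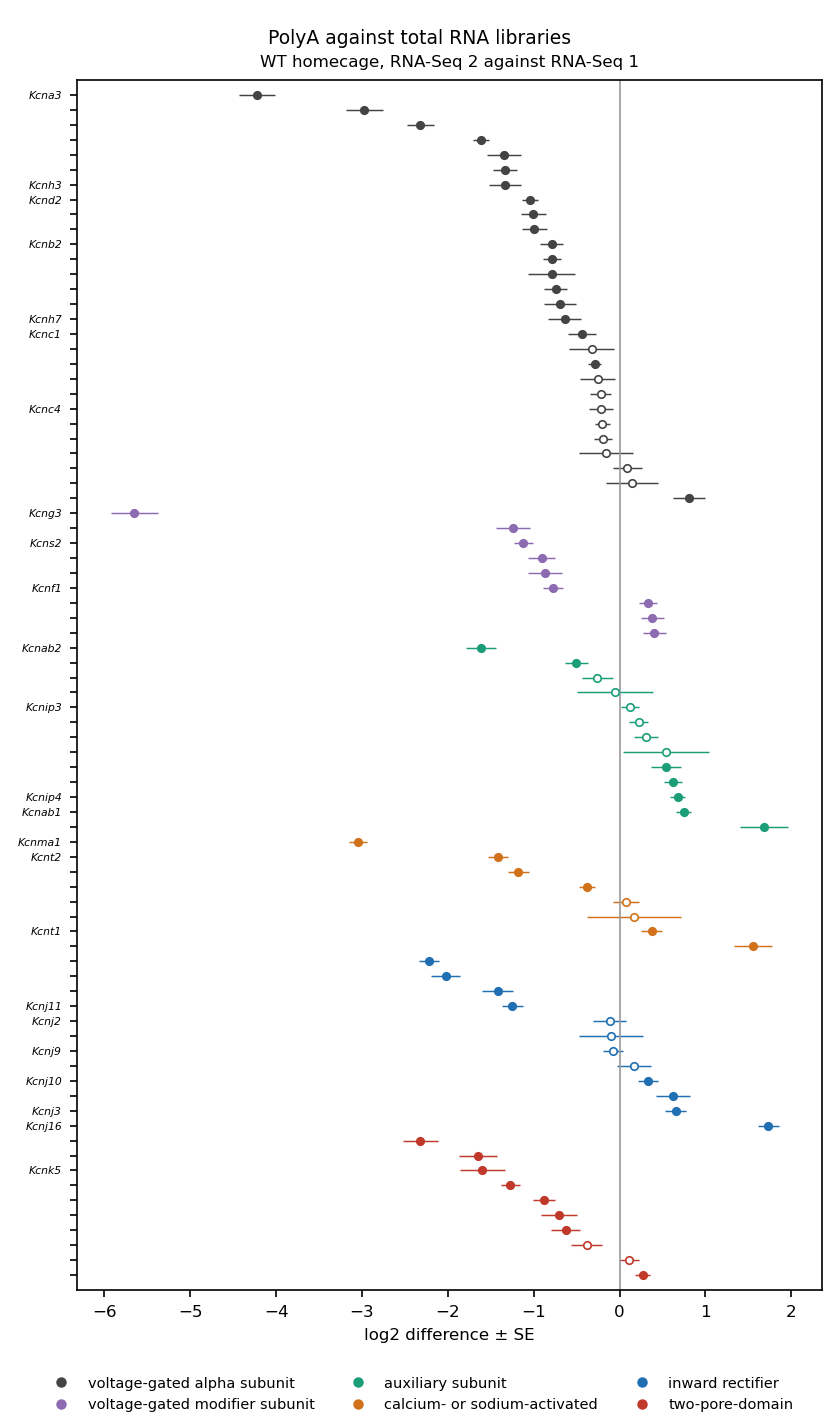
Log2 difference with its SE between polyA (RNA-Seq 2) and total RNA (RNA-Seq 1) libraries of WT homecage mice, 3 libraries each, for the 80 potassium channel genes by role, with symbols for the members named in a comparison. Filled points passed an adjusted p under 0.05, 41 to the left of zero and 16 to the right, with Kcng3 at -5.65 and Kcnj16 at 1.73.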

How the data were processed

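RNA from the dorsal hippocampus of 24 libraries in 7 groups was analysed. The authors deposited counts per gene, made with STAR, featureCounts 1.4.4 and SAMtools 1.6 per the submitters' processing notes; whether strand was used in counting is not given in the sources used here. The labels of the CBP KIX/KIX homecage libraries give no library type, which was taken from the study's methods.

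Counts were filtered by filterByExpr, scaled by upper quartile and tested over all genes with edgeR 4.0.16 in R 4.3.3 (quasi-likelihood test, Benjamini-Hochberg adjustment, threshold 0.05). Comparisons over both experiments had the experiment as a batch and RUVr factors, 4 for genotype and 3 for learning, from an implementation written for this work. Alternatives were DESeq2 1.42.0, TMM, no filter, GC-content normalization in 10 bins, fewer factors, a replicate block and leaving out each library, and, chosen after seeing the data, leaving out CBP KIX/KIX homecage replicates 3 and 4 and fits on 2 groups alone. Scripts were tested on simulated data.

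The members and lists were chosen with earlier results of these data known. Named are members called in any comparison but library type, the 5 with the lowest p in each direction for genotype after learning and for learning, the 3 in each direction for genotype in homecage and for library type, and the 2 with the highest level per kb in each role, of which 1 is not reported here. Exon lengths and positions are from GENCODE M21 on GRCm38, and overlapping genes can share reads.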

Additional observations from a re-analysis of the deposited data

Results flagged for a closer look

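In the 21 genes and 3 groups of 4 libraries looked at, 63 in all, 2 values lay far from the rest of their group, with a gap to the nearest library above Dixon's critical value. Chance gives about 1 such group in 20, so 2 of 63 groups are no more than chance would give. Kcnj2 was named for its low p in the homecage comparison, which holds the flagged library. Kcnj2 had 49.7 CPM in CBP KIX/KIX homecage replicate 3, and the nearest library had 19.0 CPM, a gap of 0.903 of the range. Kcnb2 had 13.9 CPM in CBP KIX/KIX homecage replicate 4, and the nearest library had 19.0 CPM, a gap of 0.833 of the range. Both libraries are those with the higher summed astrocyte markers, and the part of these in the values was not tested.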

How the results depend on the processing

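Counts are of members called, and the cause of each difference was not tested. For genotype after learning, with 3 members, DESeq2 gave 6, GC-content normalization 1, no RUVr factors 0, 2 RUVr factors 1, and leaving out 1 library 1 to 7. For learning in WT, with 1 member, DESeq2 gave 8, TMM 0, GC-content normalization 0, no RUVr factors 0, 2 RUVr factors 0, and leaving out 1 library 0 to 14. For fear conditioning in CBP KIX/KIX, with 0 by edgeR and 19 at an unadjusted p under 0.05, no filter gave 1, DESeq2 1 and leaving out 1 library 0 to 10. For genotype in homecage DESeq2 gave 1. Leaving out 1 library gave 0 to 14 for the water maze and 0 to 2 for the difference of learning between experiments, the highest without WT homecage replicate 3. Over all genes, 518 for genotype after learning became 884 by DESeq2, 254 without a filter, 188 with GC-content normalization, 124 with 2 factors and 4 with none, and 154 for learning became 749, 79, 66, 100 and 9, and 99 by TMM. By DESeq2 59 genes passed for genotype in homecage, 80 for the water maze and 300 for fear conditioning in CBP KIX/KIX, which was 55 without a filter. Kcnip4 between library types turned to -0.004 under GC-content normalization (adjusted p 0.978 by edgeR). Of 580 single-gene values under the alternatives 579 kept their direction. These genes were named for their low p-values in the same comparisons, and the alternatives used the same libraries. The count therefore does not measure how stable the results are.

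The replicate numbers were not taken as pairing, and the labels do not say that they pair animals. Deviations correlated above 0.1 in 4 of 9 same-numbered pairs in RNA-Seq 1 and 14 of 21 in RNA-Seq 2. Among pairs of different numbers 7 of 18 and 20 of 63 did. The mean correlation in RNA-Seq 2 was 0.194 for same-numbered pairs and -0.0661 for the others. The main fits hold no term for an effect shared by a replicate number. In RNA-Seq 2, 11 of 15 libraries correlated best with one of their own number (4 of 9 in RNA-Seq 1), and replicates 1 and 2 were sequenced deeper than 3 and 4. The replicate block without RUVr factors gave 0 members for genotype after learning and 0 for learning (8 and 12 genes), and with 2 factors 1 and 2 members (161 and 160 genes). With the block and 2 factors Kcnip3 passed for genotype (adjusted p 0.00536) and not Kcnt2 (0.0558) or Kcnh3 (0.112), and for learning Kcnh7 (0.0237) and Kcnc4 (0.0453) and not Kcnj10 (0.0595), by edgeR. Members below 3 counts in a library, such as Kcng3 in WT homecage replicate 3 of RNA-Seq 2, are limited by depth.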

Other observations

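Kcnj13 and Kcne2, left out of the members by name, had 0.0269 to 16.6 CPM and 0.126 to 26.5 CPM over the libraries.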
